A study of Mus musculus with 221 samples.

Results

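Myom2, Cuta, Gnb1, Lrrc8a and Wdr26 are 5 nuclear genes whose expression followed the level of mitochondrial tRNA (mt-tRNA) from embryo to embryo. They were chosen because their slopes on that level, taken without the serine tRNA gene mt-Ts1, were strong across embryos of both paternal diets and along the embryo number. They are 5 of the 55291 genes in the count table, and none of them is encoded by the mitochondrial genome. The slopes and the pattern along the embryo number are therefore given as a description, with no test.

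RNA was measured in single early 2-cell embryos by Smart-seq2, a protocol that copies polyadenylated RNA of a single sample and amplifies it by PCR. Of these, 99 were sired by C57BL/6N males on a low-fat diet (LFD) and the rest, 38 with numbers from 31 to 70 and 84 with other numbers, by C57BL/6N males on a high-fat diet (HFD), both fed for a short time in young adulthood. Oocytes were taken from C57BL/6N mice with the mitochondrial DNA of the Staudach (ST) line, so every embryo, HFD or LFD, had the ST mitochondrial genome on a C57BL/6N nuclear background. Fertilization was in vitro with frozen and thawed sperm of a few males per diet, and each date used other males. The labels give no sire, date or run, so variation between sires and the diet cannot be told apart, and the p-values measure only the spread between embryos.

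Total counts per embryo ran from 1937251 to 17246791 (median 5706066), and 11364 to 21638 genes were detected. Transcripts of the early 2-cell stage and maternal oocyte transcripts were abundant in both groups, with medians of 14.81 and 13.31 on the log2 scale of summed CPM (counts scaled to 1000000 per embryo) in HFD embryos and 15.10 and 13.31 in LFD embryos. Sperm markers had a median summed level of 1.73 CPM in HFD and 2.20 CPM in LFD embryos, and none of the 7 passed the filter on low counts. The summed macrophage markers had a median of 6.71 in HFD and 6.68 in LFD embryos on the log2 scale, but reached 6806 CPM in the highest HFD embryo against 160 CPM in the highest LFD embryo. Of 15 macrophage markers 9 were tested and 6 were higher in HFD embryos, where 2.15% of all genes were called in either direction. Over all embryos, centred within diet, their summed level had correlations of −0.19 to 0.13 with the 5 genes. Within HFD embryos these ran from −0.22 (Myom2) to 0.18 (Wdr26), and within LFD embryos from 0.02 (Myom2) to 0.30 (Lrrc8a). The part of macrophage RNA in the slopes was not tested.

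The 5 genes belong to different processes. Myom2 encodes myomesin 2, which links myosin filaments at the M-band of striated muscle. Cuta encodes a small, widely conserved protein that is related to bacterial CutA and is known for its part in anchoring acetylcholinesterase. Gnb1 encodes a β subunit of heterotrimeric G proteins, which pass signals from receptors at the cell membrane, and Lrrc8a encodes the obligatory subunit of the volume-regulated anion channel, which releases chloride and small organic osmolytes when a cell swells. Wdr26 encodes a WD-repeat protein of the GID/CTLH complex, an E3 ubiquitin ligase. Mitochondrial DNA is copied into long precursor RNAs from both strands, and the tRNAs lie between the coding genes and are cut out of those precursors. Mitochondria are inherited from the oocyte, those of the sperm being removed after fertilization, and maternal transcripts are cleared while the embryonic genome is switched on.

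The mt-tRNA level was log2 of the summed CPM of 21 of the 22 mt-tRNA genes, with 0.5 CPM added. mt-Ts1 was left out because it alone took 76.3% of all mt-tRNA counts. Of the counts in the remaining level, mt-Tq (glutamine) held 43.9% and mt-Tp (proline) 19.1%. The sequences of these 3 genes are shown because they set what the level does and does not contain. They are the reference mouse sequences (GENCODE vM21, C57BL/6J mitochondrial DNA) and not those of the ST line, and capitals mark the anticodon.
mt-Ts1: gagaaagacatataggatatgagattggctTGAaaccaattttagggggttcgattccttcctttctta
mt-Tq: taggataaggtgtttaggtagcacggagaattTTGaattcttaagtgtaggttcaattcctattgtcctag
mt-Tp: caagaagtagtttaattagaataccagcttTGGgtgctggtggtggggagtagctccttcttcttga

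All 3 lie on the reverse strand of the reference, mt-Ts1 at positions 6870 to 6938, mt-Tq at 3772 to 3842 and mt-Tp at 15356 to 15422 of chromosome MT. Smart-seq2 libraries keep no strand, while the counting used strand, so reads of these genes and of RNA copied from the other strand at the same place cannot be told apart. mt-Ts1 begins within the end of mt-Co1 (5328 to 6872, forward strand), and within diets the log2 CPM of both had r = 0.94 over all embryos. The r of mt-Co1 with the level without mt-Ts1 was 0.36. The counts are called mt-tRNA here because the annotation does so.

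The level ranged from 5.21 to 8.82 in HFD embryos (median 6.77) and from 4.74 to 7.85 in LFD embryos (median 6.46). The groups overlapped over most of this range, but the level of 25 HFD embryos exceeded that of every LFD embryo, and 21 of these 25 carried numbers from 31 to 70. The mean over the 38 HFD embryos with those numbers was 7.83 ± 0.54 (SD), against 6.55 ± 0.56 in the other 84 HFD embryos and 6.46 ± 0.52 in the 99 LFD embryos.

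Gnb1, Lrrc8a and Wdr26 were higher in embryos with more mt-tRNA, and Myom2 and Cuta were lower. Per doubling of the mt-tRNA level, and with diet as a covariate, Myom2 had a slope of −0.74 (SE 0.06) on the log2 scale, which is 0.597 times its level. Cuta had a slope of −0.55 (SE 0.05), or 0.683 times. Gnb1 had a slope of 0.44 (SE 0.04), Lrrc8a of 0.46 (SE 0.04) and Wdr26 of 0.39 (SE 0.04), which are 1.35, 1.38 and 1.31 times their levels per doubling. These slopes are in the direction and size that chose the genes. Of the 14810 genes fitted, 30.2% had a slope past the threshold (FDR under 0.05), so that a slope as such was common.

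Ordered by the ratio of the slope to its SE, Myom2 was 6th of the 14810 genes, Gnb1 7th, Lrrc8a 10th, Cuta 11th and Wdr26 13th. The first 5 places were held by the mitochondrial genes mt-Cytb, mt-Atp6, mt-Nd6, mt-Nd2 and mt-Atp8. The choice had no numeric limit. Between and just after the 5 genes stood Omt2b (0.38, SE 0.04), Ndufb6 (0.38, SE 0.04), Omt2a (0.37, SE 0.04) and, at rank 14, Tmf1 (0.38, SE 0.04), whose ratio of 9.90 equalled that of Wdr26 to 3 digits.

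**Figure D1:**
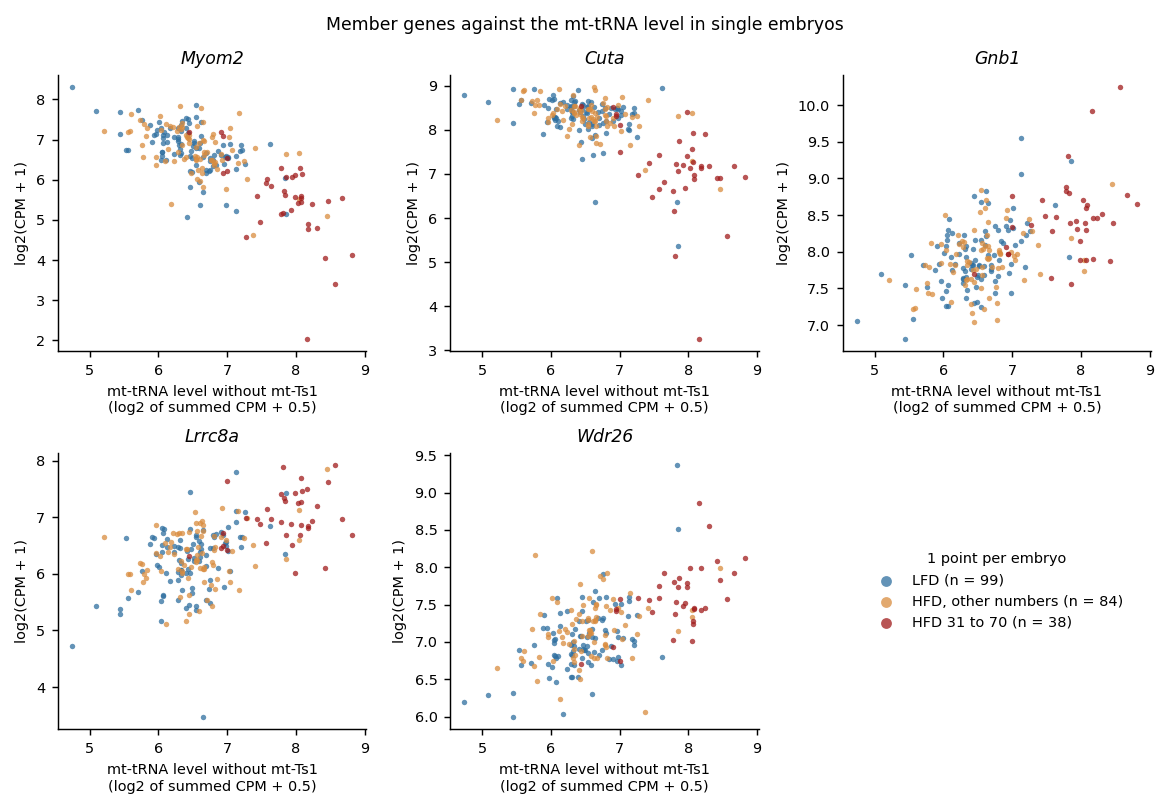
Expression of the 5 genes, as log2(CPM + 1), against the mt-tRNA level without mt-Ts1, as log2 of summed CPM + 0.5, with 1 point per embryo (LFD n = 99, HFD numbered 31 to 70 n = 38, other HFD n = 84). Myom2 and Cuta fall and Gnb1, Lrrc8a and Wdr26 climb to the right, and most points beyond a level of 7.5 are HFD embryos numbered 31 to 70.

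Myom2 (chr8:15057653-15133541, + strand, GRCm38) had a mean count of 627 and no embryo at 0. Its log2(CPM + 1) ran from 2.05 to 7.84 in HFD embryos with a median of 6.51, and from 5.08 to 8.31 in LFD embryos with a median of 6.76. The HFD embryos reached much lower than the LFD embryos, as 10 of them lay below the lowest LFD embryo and 9 of those 10 were numbered 31 to 70. The lowest HFD embryo (2.05) had 11415 genes detected, the fewest in that group. The correlation of Myom2 with the level was −0.73 within HFD and −0.56 within LFD embryos. Muscle markers were low in both groups: the median of their summed level was 3.81 in HFD and 3.86 in LFD embryos on the log2 scale, 5 of 14 had a mean count under 1 (Actc1, Tnnt2, Tnnt3, Tnnc1 and Tnni2), and the r of their sum with Myom2 was −0.09.

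Cuta (chr17:26933819-26939569, − strand) had a mean count of 1782. It ran from 3.26 to 8.97 in HFD embryos (median 8.26) and from 5.37 to 8.95 in LFD embryos (median 8.41). Both groups shared the same upper end, and the HFD group had the longer tail of low embryos. The lowest HFD embryo (3.26) had 11415 genes detected, and the lowest LFD embryo (5.37) had 14124. Within HFD and LFD embryos the r of Cuta with the level was −0.69 and −0.43.

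The counts of Cuta cannot be told apart from those of its neighbour. Phf1, which encodes a PHD finger protein that associates with Polycomb repressive complexes, lies on the opposite strand (26933052 to 26937908), and 1370 of the 3740 exon bases of Cuta (36.6%) are also exon of Phf1. Phf1 had a mean count of 4096, and its r with Cuta was 0.98 over all embryos. The log2 ratio of Cuta to Phf1 counts varied with an SD of only 0.19, whereas the log2 CPM of Cuta had an SD of 0.73 and that of Phf1 an SD of 0.86. Phf1 had the same kind of slope on the level (−0.61, SE 0.06). The least-squares slope of log2 Cuta on the level within diets was −0.65, and that of the ratio of Cuta to Phf1 was 0.10. All values given here under the name of Cuta are values of that count, which may hold reads of Phf1.

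Gnb1 (chr4:155491361-155559269, + strand) had a mean count of 1538. It ran from 7.04 to 10.24 in HFD embryos (median 7.99) and from 6.82 to 9.55 in LFD embryos (median 7.84), and 2 HFD embryos, both numbered 31 to 70, lay above all LFD embryos. These 2 had only 11415 and 12918 genes detected, against a median of 18925 in HFD embryos. The highest LFD embryo had 14455. The r of Gnb1 with the level was 0.56 in HFD and 0.52 in LFD embryos.

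Lrrc8a (chr2:30237715-30263790, + strand) had a mean count of 507. It ran from 5.12 to 7.92 in HFD embryos (median 6.49) and from 3.47 to 7.81 in LFD embryos (median 6.35), with 3 HFD embryos beyond the LFD range. These 3 had 12015, 12918 and 16421 genes detected, and the lowest LFD embryo had 11364. The r of Lrrc8a with the level was 0.59 in HFD and 0.43 in LFD embryos. Of its 4308 exon bases 2853 are shared with Gm28035, an annotated gene on the same strand, and reads over bases of both genes are left out by the counting program, so that the counts of Lrrc8a rest on the 1455 bases that are left.

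Wdr26 (chr1:181173228-181212001, − strand) had a mean count of 871. It ran from 6.07 to 8.86 in HFD embryos (median 7.30) and from 6.00 to 9.37 in LFD embryos (median 6.96). No HFD embryo lay outside the LFD range on either side, but 95 HFD embryos were above the LFD median and 27 below it. The upper end of the LFD range rests on libraries with few genes detected. The highest LFD embryo (9.37) had 14707 genes and the next (8.52) had 14124, and the LFD embryo after these was at 7.91. The r of Wdr26 with the level was 0.55 in HFD and 0.56 in LFD embryos.

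Per exon length, Cuta (80.1 CPM per kb) and Gnb1 (64) were the more abundant of the 5, at the 95.9th and 94.6th percentile of the tested genes. Lrrc8a followed with 20.9, on a length that includes the bases left out of its counting, then Wdr26 with 18.4 and Myom2 with 11.9 CPM per kb, at the 71.8th percentile. Each library pools the cells of 1 embryo, so less RNA per cell and fewer cells that express a gene cannot be told apart, and CPM are shares of all counts.

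The promoters of the 4 genes that matched an entry of RefSeq (build GRCm38.p6) are shown because Gnb1, Lrrc8a and Wdr26 moved together against Cuta. Each runs from 250 bases before the start to 50 bases after it, written in the direction of the gene, with GC boxes (GGGCGG, or CCGCCC on the other strand) in capitals.
Gnb1, chr4:155491111-155491410, + strand: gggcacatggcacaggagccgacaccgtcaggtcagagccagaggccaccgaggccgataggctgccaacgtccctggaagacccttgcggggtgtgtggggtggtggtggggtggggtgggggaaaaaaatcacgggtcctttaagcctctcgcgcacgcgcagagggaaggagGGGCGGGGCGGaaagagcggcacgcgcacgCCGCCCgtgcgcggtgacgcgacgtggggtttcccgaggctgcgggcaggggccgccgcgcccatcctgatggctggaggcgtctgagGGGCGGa
Lrrc8a, chr2:30237519-30237818, + strand: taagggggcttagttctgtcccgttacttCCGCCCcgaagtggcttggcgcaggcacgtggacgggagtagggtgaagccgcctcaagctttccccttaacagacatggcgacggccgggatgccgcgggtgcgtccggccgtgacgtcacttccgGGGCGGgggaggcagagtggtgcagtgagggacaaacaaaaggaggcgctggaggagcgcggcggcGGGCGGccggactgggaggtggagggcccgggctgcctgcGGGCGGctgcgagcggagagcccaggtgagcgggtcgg
Wdr26, chr1:181211929-181212228, − strand: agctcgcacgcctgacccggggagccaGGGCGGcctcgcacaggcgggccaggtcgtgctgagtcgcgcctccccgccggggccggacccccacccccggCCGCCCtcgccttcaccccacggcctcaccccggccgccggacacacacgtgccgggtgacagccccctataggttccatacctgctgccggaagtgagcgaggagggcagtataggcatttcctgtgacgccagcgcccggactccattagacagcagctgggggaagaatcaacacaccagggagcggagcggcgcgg
Cuta, chr17:26939409-26939708, − strand: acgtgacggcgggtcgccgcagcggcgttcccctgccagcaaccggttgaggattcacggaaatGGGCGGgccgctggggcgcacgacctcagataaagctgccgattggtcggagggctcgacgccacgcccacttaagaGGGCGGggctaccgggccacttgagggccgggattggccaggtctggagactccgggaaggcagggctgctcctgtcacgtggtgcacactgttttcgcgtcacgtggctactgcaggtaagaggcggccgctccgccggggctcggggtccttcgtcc

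All 4 promoters were rich in G and C, with 68% for Cuta, 70.3% for Gnb1, 70% for Lrrc8a and 71.3% for Wdr26, against a median of 52.7% over the 32851 promoters in the table. They held 30 to 32 CpG each, against a median of 7. GC boxes were found 4 times each in Gnb1 and Lrrc8a and 2 times each in Wdr26 and Cuta, with overlapping matches counted separately, and 35.7% of all promoters held at least 1. The letters CACGTG (E-box, which reads the same on both strands) were in Cuta (2 matches), Lrrc8a (1) and Wdr26 (1), and in 7.15% of all promoters. CCAAT, or ATTGG on the other strand, was in Cuta alone of the 4 printed windows (2 matches) and in 37.4% of all promoters. TATAAA, or TTTATA, was in none of the 4 windows. A second, overlapping entry for Cuta (chr17:26939489-26939788) held 3 CCAAT, 1 E-box and the same 2 GC boxes.

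Along the embryo number the 5 genes followed the level in opposite senses. In the 4 ranges of 10 numbers from 31 to 70, the mean level in HFD embryos was 7.70 to 8.06, and mean log2(CPM + 1) of Myom2 was 6.00, 5.09, 5.54 and 5.44. In the other 9 HFD ranges Myom2 lay between 6.16 (71 to 80) and 7.03. Cuta was at 7.46, 6.65, 7.30 and 7.09 in the 4 ranges and at 8.10 to 8.48 in the others. Both genes were thus lowest in the same run of HFD embryos, in which the range from 41 to 50 had the largest SD (1.41 for Myom2 and 1.5 for Cuta).

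Lrrc8a was highest in the same run, at 7.02, 7.02, 6.80 and 7.16, against 5.90 to 6.63 in the other HFD ranges. Wdr26 was at 7.44, 7.71, 7.63 and 7.59 there, against 6.88 to 7.34. Gnb1 was at 8.24, 8.68, 8.20 and 8.67, and the first HFD range (1 to 10) reached 8.37, more than 2 of these 4, although the level there was only 6.54. The LFD embryos with the same numbers showed no such run: over the 11 LFD ranges the means stayed within 6.53 to 7.0 for Myom2, 7.87 to 8.56 for Cuta, 7.74 to 8.17 for Gnb1, 6.09 to 6.43 for Lrrc8a and 6.85 to 7.30 for Wdr26. The LFD range from 71 to 80 had the highest LFD level (6.84). It also had the lowest LFD means of Myom2 and Cuta and the highest of Gnb1, Lrrc8a and Wdr26.

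**Figure D2:**
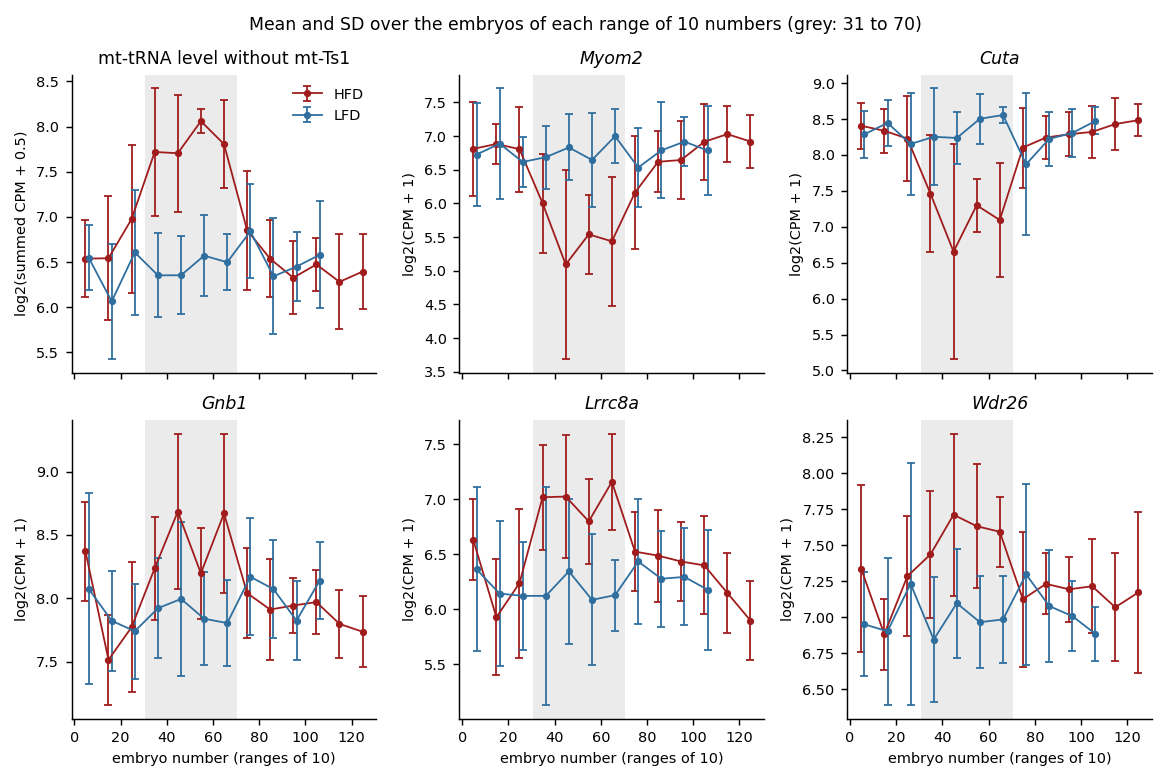
Mean and SD of the mt-tRNA level and of the 5 genes, on log2 scales, over the embryos of each range of 10 embryo numbers in HFD (red) and LFD (blue). In the grey ranges from 31 to 70 the HFD level lies at 7.70 to 8.06, with Myom2 and Cuta at their lowest and Lrrc8a and Wdr26 at their highest, while the LFD means change little.

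The HFD embryos numbered 31 to 70 also had fewer genes detected, with a mean of 17255 ± 1941 (SD) against 19063 ± 1038 in the other HFD embryos and 18511 ± 1600 in the LFD embryos. Mitochondrial RNA took 6.52% ± 2.45 of their counts, against 5.47% ± 2.06 in the other HFD embryos. Of these 38 embryos, 35 were below the LFD median for Myom2 and 36 for Cuta, and 35 were above it for each of Gnb1, Lrrc8a and Wdr26. The labels do not say what the number stands for. The part of handling, date or sire in this run was not tested.

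The slopes were also present outside that run. Without the 38 HFD embryos numbered 31 to 70, they were −0.51 (SE 0.07) for Myom2, −0.28 (SE 0.06) for Cuta, 0.41 (SE 0.05) for Gnb1, 0.45 (SE 0.06) for Lrrc8a and 0.44 (SE 0.06) for Wdr26. The slope of Cuta was about as small within LFD embryos alone (−0.30, SE 0.08). When each range of 10 numbers in each diet had its own mean, the slopes were −0.67 (SE 0.07), −0.40 (SE 0.06), 0.46 (SE 0.05), 0.45 (SE 0.06) and 0.44 (SE 0.06) in the same order. The latter describe embryos within the same range. All of these values refit, on the same embryos, the slope that chose the genes, and are no separate support for it.

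The study compared embryos by the diet of the sire, a contrast in which the level itself differs, and the choice along the embryo number takes in HFD embryos 31 to 70, so that the contrast over all embryos is not fully separate from the choice. Lrrc8a and Wdr26 were higher in HFD-sired embryos, and the other 3 genes did not pass the threshold. Lrrc8a had a log2 fold change of 0.33 (SE 0.08, FDR 0.00385, edgeR) and Wdr26 of 0.29 (SE 0.07, FDR 0.00401). Gnb1 was at 0.20 (SE 0.07, FDR 0.124), Cuta at −0.20 (SE 0.08, FDR 0.237) and Myom2 at −0.23 (SE 0.10, FDR 0.267). The 2 calls of 5 stand against 2.15% called of the 14820 genes tested.

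In mean log2(CPM + 1) Lrrc8a was 6.51 ± 0.58 (SD) with HFD and 6.23 ± 0.60 with LFD sires, and Wdr26 7.30 ± 0.45 and 7.03 ± 0.46. Gnb1 was 8.06 ± 0.52 and 7.93 ± 0.46, Cuta 7.94 ± 0.84 and 8.30 ± 0.51, and Myom2 6.36 ± 0.94 and 6.77 ± 0.58. All differences were smaller than the SD between embryos of a group, and the spread of Myom2 and Cuta was wider in HFD embryos. Two-sided permutation tests on these means used 100000 resamples (smallest possible p = 1e-05). The tests gave p = 2e-05 for Wdr26, 0.00039 for Lrrc8a, 0.0002 for Cuta, 0.00025 for Myom2 and 0.0543 for Gnb1. They take single embryos as exchangeable, which unlabelled sires and the run of HFD embryos that entered the choice put in doubt. These p-values are therefore no separate support for an effect of the diet.

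The calls for Myom2 and Cuta depended on the test. With limma-voom, which works on log values, Myom2 was lower in HFD embryos (−0.36, SE 0.10, FDR 0.0332) and so was Cuta (−0.30, SE 0.09, FDR 0.0406), where 2.23% of genes were called. With ranges of 10 numbers as a factor in edgeR all 5 genes passed, where 3.99% of genes were called. Myom2 had −0.45 (SE 0.10, FDR 0.00178), Cuta −0.37 (SE 0.08, FDR 0.00174) and Gnb1 0.22 (SE 0.07, FDR 0.0344). The numbers do not pair embryos of the diets, so this factor stands for no known shared batch. With the number of genes detected as a covariate, Myom2 (−0.30, SE 0.09, FDR 0.0377) and Cuta (−0.26, SE 0.07, FDR 0.00918) passed too, where 2.81% of genes were called. With the macrophage markers as a covariate Lrrc8a (0.33, FDR 0.00713) and Wdr26 (0.27, FDR 0.0151) were still called. Without libraries under 15000 genes detected, edgeR called 546 of 14907 genes. Wdr26 (0.37, SE 0.06, FDR 2.03e-07) and Lrrc8a (0.31, SE 0.07, FDR 0.00099) were among them, and Myom2, Cuta and Gnb1 were not.

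**Figure D3:**
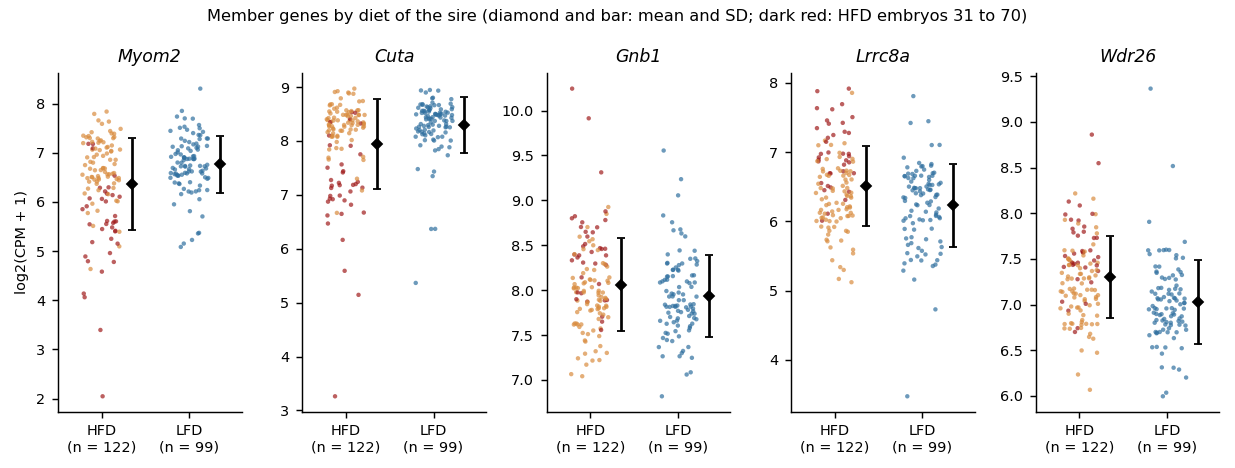
Log2(CPM + 1) of the 5 genes in each HFD and LFD embryo (LFD n = 99, HFD numbered 31 to 70 n = 38, other HFD n = 84), with the mean and SD as a diamond and bar and HFD embryos numbered 31 to 70 in dark red. The low tail of Myom2 and Cuta in the HFD group, with means of 6.36 and 7.94, is made mostly of the dark red points.

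Within ranges of 10 numbers the differences sat in 31 to 70. In each of these 4 ranges HFD embryos had the lower mean of Myom2 (by −1.74 to −0.68, log2) and of Cuta (−1.58 to −0.79), and the higher mean of Gnb1 (0.32 to 0.87), Lrrc8a (0.68 to 1.03) and Wdr26 (0.59 to 0.67). In the other 7 ranges shared by both diets the differences ran from −0.37 to 0.19 for Myom2, −0.15 to 0.23 for Cuta, −0.31 to 0.30 for Gnb1, −0.21 to 0.27 for Lrrc8a and −0.17 to 0.39 for Wdr26. Lrrc8a was higher in HFD embryos in 6 and Wdr26 in 5 of those 7.

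Without the HFD embryos numbered 31 to 70, no gene of the 5 passed, against 1.18% of all genes. Wdr26 had 0.16 (SE 0.07, FDR 0.382), Lrrc8a 0.10 (SE 0.08, FDR 0.766) and Gnb1 −0.01 (SE 0.06, FDR 0.983). Cuta and Myom2 turned to 0.06 (SE 0.06, FDR 0.854) and 0.04 (SE 0.09, FDR 0.943). At equal mt-tRNA level, that is with the level as a covariate, none passed either, against 0.466% of all genes: Wdr26 had 0.12 (SE 0.06, FDR 0.622), Lrrc8a 0.09 (SE 0.07, FDR 0.818), Myom2 0.05 (SE 0.08, FDR 0.951), Gnb1 −0.03 (SE 0.06, FDR 0.964) and Cuta −0.01 (SE 0.07, FDR 0.996). The 95% intervals at equal level were −0.11 to 0.21 for Myom2, −0.15 to 0.13 for Cuta, −0.15 to 0.09 for Gnb1, −0.04 to 0.22 for Lrrc8a and 0.0010 to 0.23 for Wdr26, so differences within those bounds are compatible with these data.

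**Figure D4:**
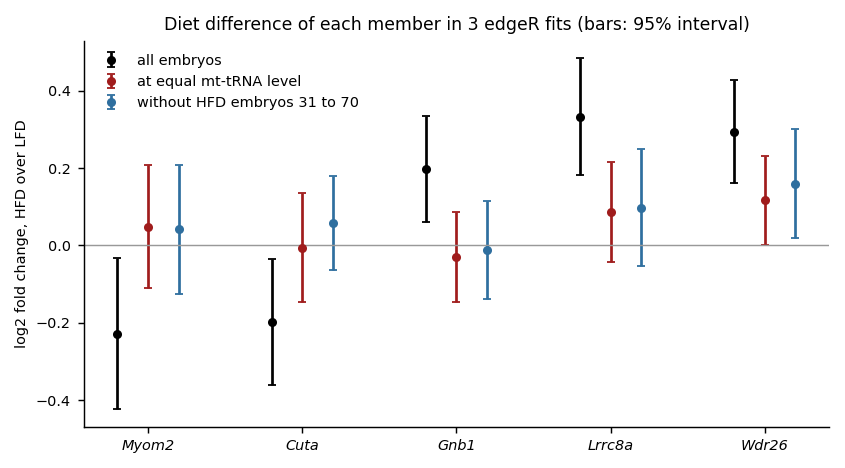
Log2 fold change HFD over LFD of the 5 genes with 95% intervals in edgeR fits on all embryos (black), with the mt-tRNA level as covariate (red) and without HFD embryos numbered 31 to 70 (blue). The black values run from −0.23 for Myom2 to 0.33 for Lrrc8a, and the other fits lie between −0.03 and 0.16.

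The slope was also compared between diets as an interaction. The genes were chosen for strong slopes across HFD and LFD embryos, so this comparison is not independent of the choice. None of the 5 passed the edgeR test, where 0.756% of all genes did, and within each diet the slopes had the same sign as over both. In simulated counts this test called only 32% of slope differences of 0.5, so smaller differences can be missed. Wdr26 had a slope of 0.62 (SE 0.08) in LFD and of 0.32 (SE 0.04) in HFD embryos, a difference HFD minus LFD of −0.29 (SE 0.09, FDR 0.0704). The LFD embryo with the highest level (7.85) had Wdr26 at 8.52, and the next (7.84) at 9.37. They had 14124 and 14707 genes detected, and the LFD slope without them was not fitted. The difference passed with the number of genes detected as a covariate (−0.31, SE 0.08, FDR 0.0363, where 1.17% of genes did), and did not pass with limma-voom (−0.20, SE 0.09, FDR 0.227) or without HFD embryos 31 to 70 (−0.33, SE 0.11, FDR 0.0879). Cuta had −0.30 (SE 0.08) in LFD and −0.63 (SE 0.07) in HFD embryos, and the difference of −0.33 (SE 0.12, FDR 0.125) turned to 0.06 (SE 0.11) without HFD embryos 31 to 70. For Myom2, Gnb1 and Lrrc8a the differences were −0.19 (SE 0.13), −0.09 (SE 0.09) and −0.08 (SE 0.10), and that of Myom2 turned to 0.20 (SE 0.14) without the same embryos.

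Other readouts of the same embryos moved with the mt-tRNA level: its r was 0.68 with the summed mitochondrial mRNA, 0.47 with mt-Ts1, −0.30 with the log2 ratio of 2-cell-stage to maternal transcripts and −0.37 with the number of genes detected. Slopes on these readouts were therefore tested at equal mt-tRNA level, with diet as the other covariate. With diet as the only covariate, edgeR called a slope on mt-Ts1 for 5116 of 14810 genes, all 5 genes included. These ran from −0.39 (SE 0.09, FDR 0.000132) for Myom2 to 0.45 (SE 0.04, FDR 6.95e-18) for Wdr26. At equal level, Wdr26 alone of the genes chosen had a slope on mt-Ts1 past the threshold. At equal level Wdr26 rose with mt-Ts1 by 0.32 per doubling (SE 0.05, FDR 4.57e-09, edgeR). Cuta was at 0.08 (SE 0.07, FDR 0.45), Myom2 at −0.01 (SE 0.08, FDR 0.912), Lrrc8a at −0.04 (SE 0.06, FDR 0.656) and Gnb1 at −0.07 (SE 0.05, FDR 0.333). Such slopes were called for 29.4% of genes, so the call of Wdr26 does not set it apart from genes in general. Within diets mt-Ts1 had r = 0.94 with mt-Co1, and whether the slope is specific to mt-Ts1 was not tested. The r with mt-Ts1, not adjusted for the level, was 0.48 for Wdr26 and −0.32 to 0.19 for the other 4.

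On mitochondrial mRNA with diet as the only covariate, edgeR called a slope for 5183 of 14795 genes, all 5 genes included. With mitochondrial mRNA at equal mt-tRNA level, Wdr26 (0.29, SE 0.07, FDR 0.000677) and Gnb1 (0.21, SE 0.07, FDR 0.0329) rose, where 19.6% of genes were called. Lrrc8a had 0.16 (SE 0.09, FDR 0.177), Cuta 0.04 (SE 0.10, FDR 0.835) and Myom2 0.02 (SE 0.11, FDR 0.921). Of the 9 mt-tRNA genes of the level that passed the filter, all 9 had a positive r with Gnb1, Lrrc8a and Wdr26. All 9 had a negative r with Myom2, and 8 had a negative r with Cuta. Gnb1, Lrrc8a, Wdr26, Myom2 and Cuta were chosen for slopes on a level that includes these mt-tRNA genes. Such signs are therefore largely set by the choice. The r of largest size was with mt-Tp for Myom2 (−0.66), Cuta (−0.64), Gnb1 (0.66) and Lrrc8a (0.59), and with mt-Tq for Wdr26 (0.50).

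The 2-cell-stage to maternal ratio compares transcripts of the first wave of embryonic transcription with transcripts stored in the oocyte, and all 5 genes moved with it at equal mt-tRNA level, where 33.8% of genes were called. Cuta (0.37, SE 0.07, FDR 1.32e-06) and Myom2 (0.23, SE 0.07, FDR 0.00782) were higher in embryos with more 2-cell-stage transcripts. Gnb1 (−0.30, SE 0.05, FDR 1.06e-07), Wdr26 (−0.28, SE 0.05, FDR 1.98e-07) and Lrrc8a (−0.23, SE 0.06, FDR 0.000476) were lower. With the number of genes detected in place of the mt-tRNA level as covariate, the slope of Myom2 did not pass (0.17, SE 0.10, FDR 0.18), and the other 4 passed with the same signs.

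The number of genes detected divided them in the same way. Per 1000 more genes detected, at equal mt-tRNA level, Cuta was higher by 0.22 (SE 0.02, FDR 3.56e-18) and Myom2 by 0.15 (SE 0.03, FDR 5.94e-07). Gnb1 had −0.13 (SE 0.02, FDR 3.03e-12), Lrrc8a −0.11 (SE 0.02, FDR 1.81e-06) and Wdr26 −0.09 (SE 0.02, FDR 4.41e-05), and 30.7% of genes were called. Over all embryos, centred within diet, the r of Cuta with the number of genes detected (0.72) was larger in size than its r with the mt-tRNA level (−0.63), and for the other 4 genes the reverse held. Within HFD embryos alone Gnb1 had −0.60 with genes detected and 0.56 with the level, and Lrrc8a −0.585 and 0.586. Within LFD embryos these were −0.37 and 0.52 for Gnb1 and −0.07 and 0.43 for Lrrc8a. The part of RNA quality in the relation to the mt-tRNA level was not tested. With the number of genes detected as a covariate their slopes on the level were −0.63 (SE 0.06) for Myom2, −0.41 (SE 0.04) for Cuta, 0.28 (SE 0.04) for Gnb1, 0.35 (SE 0.05) for Lrrc8a and 0.29 (SE 0.04) for Wdr26.

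**Figure D5:**
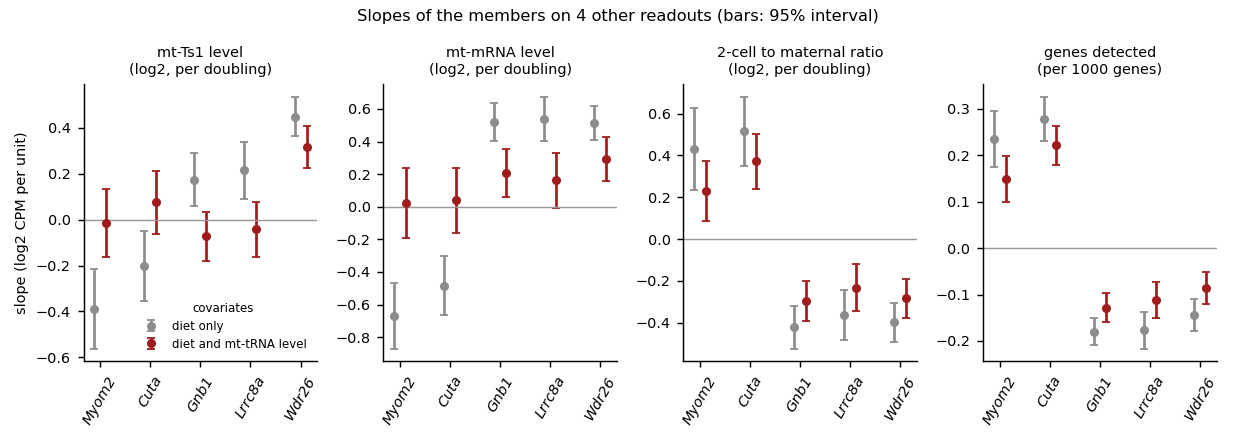
Slopes of the 5 genes, in log2 CPM, on the mt-Ts1 level, the mitochondrial mRNA level, the 2-cell-stage to maternal ratio (each per doubling) and the number of genes detected (per 1000), with 95% intervals, with diet alone (grey) or diet and the mt-tRNA level (red) as covariates. With the level as a covariate Wdr26 keeps a slope of 0.32 on mt-Ts1 while the others lie between −0.07 and 0.08.

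Among themselves the 5 genes formed opposed sets, by the sign of the slope that chose them. Within diets, Myom2 and Cuta had r = 0.77 with each other, and Gnb1 and Lrrc8a 0.74. Wdr26 was less close to Gnb1 (0.38) and Lrrc8a (0.35) than to Cuta, with which its r was −0.55. All 6 values between the sets were negative, from −0.61 (Cuta and Gnb1) to −0.46 (Cuta and Lrrc8a). Without the HFD embryos 31 to 70, and centred anew within diets, r was 0.60 for Myom2 and Cuta and 0.70 for Gnb1 and Lrrc8a. The other pairs were computed without them on values still centred on the diet means of all embryos. Their signs were the same, with −0.51 for Cuta and Wdr26. Genes chosen for slopes on the same level tend to such signs by the choice itself. All points also share depth and the CPM scale, and the values are a description.

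Of all tested genes, those with the most similar pattern over all embryos were Phf1 (r = 0.77), Cuta and Gm11545 (0.71) for Myom2. For Cuta they were Phf1 (0.98), Mark2 (0.83), which encodes a polarity kinase, and Pak4 (0.80), a kinase that acts downstream of Cdc42. For Gnb1 they were Lrrc8a, Tmf1 (0.73), which encodes a Golgi protein, and mt-Cytb (0.73), the cytochrome b of respiratory complex III. For Lrrc8a they were Gnb1, the zinc transporter gene Slc39a1 (0.64) and Arglu1 (0.63), and for Wdr26 Rif1 (0.76), Suz12 (0.75), a core subunit of Polycomb repressive complex 2, and Psme4 (0.72), a proteasome activator. The 3 neighbours of Wdr26 were higher in HFD embryos, with 0.25 (SE 0.06, FDR 0.00767) for Rif1, 0.23 (SE 0.06, FDR 0.0212) for Suz12 and 0.27 (SE 0.07, FDR 0.00859) for Psme4. Tmf1 (0.27, SE 0.06, FDR 0.00648) and mt-Cytb (0.53, SE 0.09, FDR 1.6e-05) were higher too, where 2.15% of all genes were called. Mark2 (−0.22, SE 0.07, FDR 0.0608), Phf1 (−0.20, SE 0.09, FDR 0.324), Gm11545 (−0.16, SE 0.09, FDR 0.493), Slc39a1 (0.14, SE 0.10, FDR 0.608), Arglu1 (0.10, SE 0.10, FDR 0.766) and Pak4 (−0.06, SE 0.07, FDR 0.79) did not pass.

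Genes known to act with the 5 were described by lists, each counted with the member of the 5 that belongs to it. Between diets 2.15% of all genes tested were called. Of 12 tested genes of the GID/CTLH complex, 2 were higher in HFD embryos, Wdr26 and the scaffold gene Ranbp9 (0.20, SE 0.06, FDR 0.0309), and the median log2 fold change was 0.05, against 0.01 over all genes. On the mt-tRNA level 6 of these 12 had a positive and 3 a negative slope past the threshold, with a median of 0.14 against 0.01 over all genes and beside 30.2% of all genes past the threshold. Wdr26, chosen for this slope, is counted in both. Ranbp9 was among the former (0.24, SE 0.04). Without HFD embryos 31 to 70, Wdr26 and Ranbp9 did not pass and Gid4, the substrate receptor, which was named after its value was seen, was lower in HFD embryos (−0.21, SE 0.06, FDR 0.0379).

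Of 32 subunits of heterotrimeric G proteins 22 were tested and none passed between diets, with Gnai1 (0.21, SE 0.07, FDR 0.0725) and Gna12 (0.21, SE 0.07, FDR 0.101) nearest. On the level 7 of the 22 had a positive and none a negative slope past the threshold, a total share near that of all genes (30.2%), with a median of 0.11. Gnb1, chosen for its slope, is 1 of the 7, and 18 of the 22 slopes were above 0. Gnb2, another β subunit, which was named after its values were seen, was lower in HFD embryos at equal level (−0.34, SE 0.09, FDR 0.0457) and without HFD embryos 31 to 70 (−0.41, SE 0.09, FDR 0.00393). Of 6 tested chaperones and effectors of G proteins none passed between diets and 1, Plcb4, a phospholipase C gene named after its value was seen, had a slope, of −0.26 (SE 0.10, FDR 0.044). The smallest p among them were those of Pdcl (0.12, SE 0.06, FDR 0.384), which encodes a phosducin-like chaperone, and Plcb3 (−0.14, SE 0.09, FDR 0.515).

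Of 4 tested LRRC8 subunits only Lrrc8a passed between diets, where 2.15% of all genes did. Lrrc8b, a partner subunit of the channel, was at −0.10 (SE 0.06, FDR 0.484), and Lrrc8e, named after its value was seen, had a slope on the level opposite to that of Lrrc8a (−0.29, SE 0.07, FDR 0.000444). Of 12 tested genes of cell volume and osmolyte transport none passed between diets, with Slc12a2, the Na-K-Cl cotransporter, at 0.31 (SE 0.10, FDR 0.0777) and Slc6a9, the glycine transporter of early embryos, at −0.20 (SE 0.09, FDR 0.299). On the level 2 of the 12 had a positive and 3 a negative slope past the threshold, beside 30.2% of all genes. Among them were Slc12a2 (0.35, SE 0.07) and Slc6a9 (−0.45, SE 0.06).

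Of 10 M-band genes 5 were tested and none passed between diets. Ttn, the giant sarcomere protein titin, was at 0.18 (SE 0.07, FDR 0.19) and Nbr1, a selective autophagy receptor, at −0.14 (SE 0.05, FDR 0.194). Their slopes on the level were opposite, with 0.18 (SE 0.05) for Ttn and −0.28 (SE 0.04) for Nbr1. In all 1 of 5 had a positive and 3 a negative slope past the threshold, Myom2 included, beside 30.2% of all genes. Of 4 tested genes listed with Cuta none passed between diets. All 4, Cuta included, had a slope past the threshold, 2 positive and 2 negative. App, the amyloid precursor gene, had a diet difference of 0.37 (SE 0.28, FDR 0.626) on a mean count of only 19.7.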

How the data were processed

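Single early 2-cell embryos were profiled by Smart-seq2 without molecular identifiers. The authors deposited unnormalized counts for each gene, made, per the labels and the study's methods, with trim_galore 0.6.6, STAR 2.7.10a on GRCm38 with the mitochondrial sequence replaced by that of the ST line, and, per the file headers, featureCounts 2.0.3 over exons of Ensembl release 102, with strand setting 2. Every sample column was used (122 HFD, 99 LFD). Coordinates are those of the count table.

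CPM were computed from total counts, and members are shown as log2(CPM + 1). Counts were tested with edgeR 4.0.16 (R 4.3.3, quasi-likelihood, TMM, low counts removed by filterByExpr with diet as group). P-values were adjusted by Benjamini-Hochberg over all genes tested, with a threshold of FDR 0.05. The mt-tRNA genes were left out of slopes on the level. limma 3.58.1 and DESeq2 1.42.0 served as alternatives. Intervals are 95% normal intervals from the SE. The fits were tested on simulated data. Permutation tests of single genes used 100000 resamples. The 50 pairs of embryos with the highest correlation were compared by chi-square, none of them was alike within sampling noise, and none were merged; the other pairs were not compared. Members, lists and tests were chosen with earlier results of these data known, and the fits at equal mt-tRNA level and with a mean for each range in each diet were added after seeing the data.

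Named genes were the 5 members, mt-Ts1 and the mt-tRNA genes, the 3 genes with the highest r (log2(CPM + 1), centred within diet) for each member, the genes called between diets and the 2 with the smallest p of each functional list, and genes that overlap a member, with exceptions named in the text. Promoters matched 4 of the 5 genes by symbol. PCR copies are not independent molecules, so errors come from the spread between embryos and not from counting.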

Additional observations from a re-analysis of the deposited data

How the results depend on the processing

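Diet differences were computed under 13 alternatives. Lrrc8a and Wdr26 were called in 11 of them, all but those without HFD embryos 31 to 70 and at equal mt-tRNA level, Myom2 and Cuta in 5 and Gnb1 in 3. The diet difference changed sign without HFD embryos 31 to 70 for Cuta (0.058), Myom2 (0.041) and Gnb1 (−0.012), and at equal mt-tRNA level for Myom2 (0.048) and Gnb1 (−0.030). Without HFD embryos 31 to 70 the difference of slopes between diets changed sign for Cuta (0.059) and Myom2 (0.20). At equal mt-tRNA level the slope on mt-Ts1 changed sign for Cuta (0.076), Gnb1 (−0.073) and Lrrc8a (−0.043), and that on mitochondrial mRNA for Cuta (0.040) and Myom2 (0.022). The slopes of the 5 genes on the mt-tRNA level had the same sign under every alternative run, which the choice by this slope largely sets. Their size changed. Without libraries under 15000 genes the slopes were −0.71 for Myom2, −0.48 for Cuta, 0.31 for Gnb1, 0.40 for Lrrc8a and 0.28 for Wdr26. With mitochondrial mRNA as a covariate they were −0.75, −0.57, 0.34, 0.39 and 0.25 in the same order.

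The number of genes called between diets (318) was 7030 with no filter on low counts, 591 with ranges of 10 numbers as a factor, 546 without libraries under 15000 genes, 175 without HFD embryos 31 to 70 and 69 at equal mt-tRNA level. DESeq2 called 198 genes higher and 230 lower, against 186 and 132. Genes with a slope on the mt-tRNA level (4480) were 2589 in HFD embryos alone, 2826 without HFD embryos 31 to 70 and 1866 with the mitochondrial mRNA as a covariate. Genes with a slope difference between diets were 361 with limma-voom and 174 with genes detected as a covariate. Genes with a slope on mitochondrial mRNA were 2894 at equal level, and with a slope on genes detected 9076 with limma-voom. Apart from the fewer embryos in some fits, the cause was not tested.

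Embryos of both diets share 94 numbers, but the correlation of their deviations from the group means was over 0.1 in only 20 and had a median of 0.01, so the numbers do not pair the embryos. With the number as a replicate block in limma-voom 800 genes were called between diets and 762 had a slope on the level. All 5 genes were called between diets in that fit.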

Other observations

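The relation of the 5 genes to mitochondrial mRNA was uneven over the 13 mitochondrial mRNA genes, as far as r of log2(CPM + 1) within diets over all embryos describes it. Gnb1 had r = 0.73 with mt-Cytb and 0.51 with mt-Atp6, but 0.05 with mt-Co1 and −0.0015 with mt-Co2. Cuta ran from −0.75 with mt-Cytb and −0.53 with mt-Atp6 to 0.10 with mt-Nd3 and 0.14 with mt-Nd4l. Myom2 ran from −0.66 with mt-Cytb to −0.06 with mt-Nd3. Lrrc8a had 0.62 with mt-Cytb and 0.08 with mt-Co1. Wdr26 ran from 0.50 with mt-Nd2 and 0.49 with mt-Nd6 to 0.22 with mt-Nd3 and 0.085 with mt-Nd4l, with 0.42 for mt-Cytb. The mt-tRNA level without mt-Ts1 had 0.69 with mt-Cytb and with mt-Atp6 and 0.27 with mt-Co2, whereas mt-Ts1 had 0.42 with mt-Cytb and 0.84 with mt-Co2. The cause of these differences was not tested.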
